A study of Mus musculus with 30 samples.

Results

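The Wnt pathway genes described here are the ligands, receptors and modulators of Wnt signalling on arrays of mammary carcinomas from mice with a Myc transgene. They were chosen by name: probes annotated to a single gene whose symbol began with Wnt, Fzd, Sfrp or Dkk and a digit, or was Lrp5, Lrp6, Lef1, Tcf7, Axin2, Wif1 or Ctnnb1, with a value on at least 20 of 30 arrays. The rule used no measured level. It gave 38 probes of 37 genes, of 18923 probes and 13422 genes in all that had as many values. They are 16 ligands, 9 frizzled receptors, 2 co-receptors, 8 probes of 7 secreted inhibitors and 3 intracellular genes. A further 3 probes matched by name and had too few values. Just inside the minimum were Wnt10a with 20 arrays and Dkk1 with 22, at mean log2 ratios to the reference of -3.15 and 0.97. Just outside it were Wnt1 with 15, Wif1 with 14 and Wnt3 with 13, at means of -0.76, 0.10 and -1.08. Tcf7 gave no member.

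RNA extracts from carcinomas, 15 in all, were each run on a pair of arrays (2 arrays per extract). An extract lay in channel 1 of an array and in channel 2 of its partner. The other channel held the same reference RNA throughout. The extracts carry 10 code numbers, with number 579 on 5 extracts (579-A, 579-B, 579-D, 579-E and 579-F), 546 on 2 (546-A and 546-B), and 1 extract each for the others (540-B, 547-A, 548-A, 550-A, 561-B, 567-B, 595-A and 597-B). By the labels, 5 arrays were made for a study of tumour progression and 25 for one of the epithelial to mesenchymal transition (EMT). Extracts 550-A and 561-B carry the progression description on both arrays, 12 extracts carry the EMT description on both, and 595-A carries one of each. All extracts share the Myc transgene. Its promoter, the strain and age of the mice, the meaning of number and letter and the make-up of the reference were not found in the sources used here. Nothing in the labels ties an extract to an animal, so no p-value below speaks of a spread among animals. In most tests it speaks only of the spread among the extracts, part of which may be technical. The test between extracts instead measures that spread against the difference between the paired arrays of 1 RNA.

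Wnt proteins are secreted lipid-modified ligands that bind frizzled receptors together with the co-receptors LRP5 and LRP6. In the canonical branch this binding stops the destruction of beta-catenin, the product of Ctnnb1, which then enters the nucleus and activates genes with TCF and LEF factors. Other branches act through frizzled receptors without beta-catenin and steer cell polarity and movement. In the mammary gland Wnt signals take part in bud formation, in ductal branching and in the upkeep of basal stem cells. Wnt1 was found as an oncogene of mouse mammary tumours.

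Values are log2 ratios of extract to reference as the authors deposited them, with the sign turned on arrays that held the extract in channel 2, and averaged over the paired arrays of an extract. The labels do not state which channel was divided by which. The Myc probe stood at 3.16 ± 0.37 on this scale (SD, n = 15 extracts) and was positive in 15 of 15, so positive values are called the Myc side and negative values the opposite side. A transgene that raises Myc would make this the side of higher level in the extract, which is likely but not proven. Fewer cells of a type and less RNA per cell cannot be told apart in such bulk extracts. As a check of the tissue, 15 of 15 epithelial marker genes passed the test on the Myc side, with a median log2 ratio of 2.90.

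Most of these genes were weakly measured, which limits what follows. Arrays held from 13434 to 21991 values. A median of 33.3% of a member's values, against 25.0% over all tested probes, were exactly those of ratios between small whole numbers (20 at most, matched at 3 decimals). The paired arrays of an extract correlated over the 15 extracts at a median r of -0.04 for members, against 0.04 for all tested probes. Only Ctnnb1 (r 0.94), Sfrp2 (0.66) and the Sfrp1 probe with 29 arrays (0.66) reached 0.5, which is 7.89% of members, against 14.9% of all tested probes. The mean log2 ratio was higher with the extract in channel 2 than in channel 1 for 30 of 38 members, by a median of 0.93 over all 38. For 18 members (47.4%, against 41.0% of all tested probes) it lay on the opposite side in channel 1 and on the Myc side in channel 2, and for 0 the other way round. Extracts 546-A and 548-A were the thinnest, with 16 of 38 members measured on both arrays in each. A further 8 members had no value in 548-A and 3 had none in 546-A. Of 76 highest and lowest values of the members, 20 rested on 1 array (26.3%), against 12.6% of all 555 extract values. The members that passed against the reference are therefore given with their means in both orientations.

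**Figure D1:**
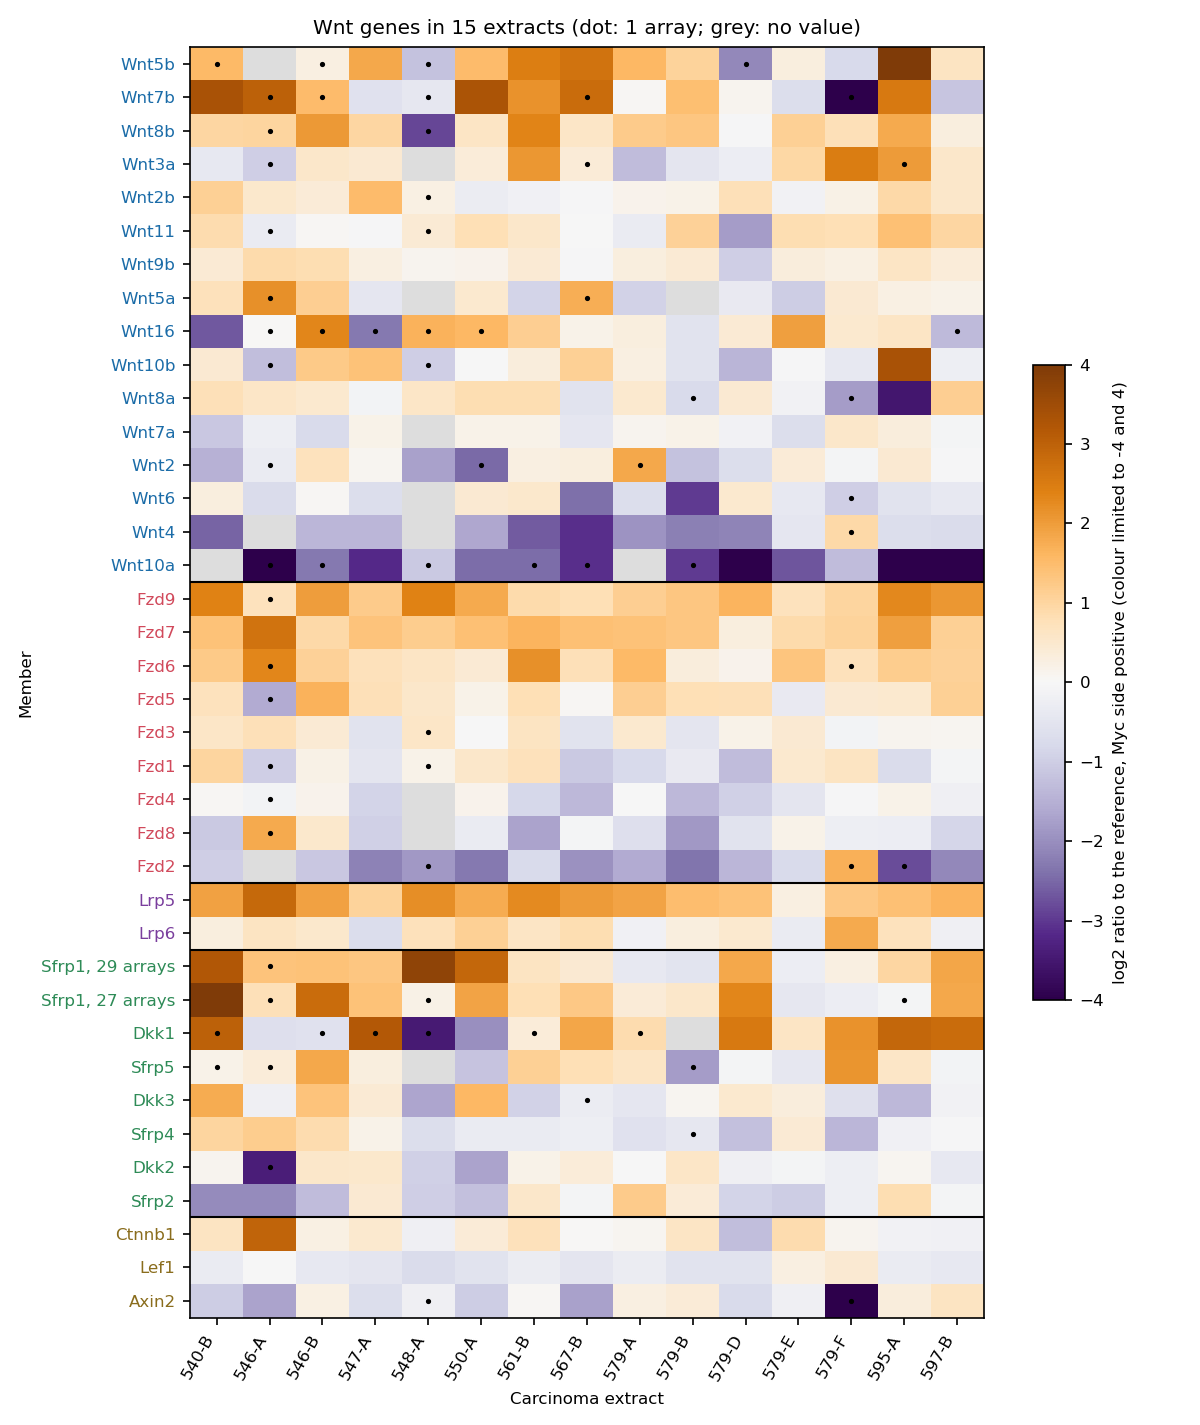
Log2 ratio to the reference of 38 Wnt probes (rows, grouped by role and ordered by mean within it) in 15 carcinoma extracts (columns), orange on the Myc side and purple on the opposite side, with a dot where the value rests on 1 array and grey where there is none. Lrp5, Fzd7, Fzd9 and Fzd6 are orange in 15 of 15 extracts and Wnt10a is purple in all 13 with a value.

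Promoter windows are printed here as background to the members the results turn on, since Fzd7 and Fzd9 lay on the Myc side in every extract and Ctnnb1 differed between extracts. They come from RefSeq on GRCm38.p6, run 5′ to 3′ on the gene's strand and cover 250 bases before the start and 50 after it. Capitals mark a match to the E-box CACGTG, bound by Myc, or to a TCF/LEF core (CTTTGAA as well as the forms CTTTGAT or else CTTTGTA and lastly CTTTGTT), each searched on both strands. The motifs do not overlap each other. The Fzd7 window is chr1:59481897-59482196 on the plus strand, the Fzd9 window chr5:135250998-135251297 on the minus strand, and the first of 2 listed Ctnnb1 windows chr9:120933150-120933449 on the plus strand.
Fzd7: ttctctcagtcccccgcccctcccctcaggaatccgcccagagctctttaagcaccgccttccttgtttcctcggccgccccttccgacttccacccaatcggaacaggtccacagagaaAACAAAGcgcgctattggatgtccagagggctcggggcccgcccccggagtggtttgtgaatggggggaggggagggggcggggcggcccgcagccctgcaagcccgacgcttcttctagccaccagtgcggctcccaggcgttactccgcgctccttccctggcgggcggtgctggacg
Fzd9: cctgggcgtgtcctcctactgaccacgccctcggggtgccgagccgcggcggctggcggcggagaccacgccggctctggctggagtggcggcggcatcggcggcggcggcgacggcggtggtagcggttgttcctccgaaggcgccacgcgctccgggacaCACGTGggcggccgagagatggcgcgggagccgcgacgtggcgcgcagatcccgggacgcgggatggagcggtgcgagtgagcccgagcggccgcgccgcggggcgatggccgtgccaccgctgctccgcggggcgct
Ctnnb1: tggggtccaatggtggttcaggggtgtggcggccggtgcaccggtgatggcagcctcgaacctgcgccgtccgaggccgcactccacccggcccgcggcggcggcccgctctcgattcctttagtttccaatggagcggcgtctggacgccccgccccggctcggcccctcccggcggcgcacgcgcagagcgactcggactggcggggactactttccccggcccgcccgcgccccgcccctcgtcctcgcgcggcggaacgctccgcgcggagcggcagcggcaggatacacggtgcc

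Fzd7 held CTTTGTT on the reverse strand at positions -130 to -124 from the start, Fzd9 held an E-box at positions -88 to -83, and the Ctnnb1 window held neither. In all, 31 windows were found for 24 of the 37 member genes. None was found for Lrp5, Fzd6 or Wnt10a, which also kept their side in every extract with a value. The E-box was in 2 of the 31 (6.45%), against 7.15% of all 32851 windows. A TCF/LEF core was in 5 (16.1%), against 16.9% of all windows. The member windows had a median GC content of 67.3%, against 52.7% over all. These letters are a description and show no binding.

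The first comparison asked which Wnt genes lay apart from the reference in these carcinomas. The co-receptor gene Lrp5 and the receptor genes Fzd7, Fzd9 and Fzd6 lay on the Myc side in every extract and in both channel orientations, with means between 1.04 and 1.69. The ligand gene Wnt10a lay on the opposite side in every extract with a value, at a mean of -3.15. In all, 10 of 38 members (26.3%) passed on the Myc side, where 23.0% of all tested probes did. A further 5 (13.2%) passed on the opposite side, where 13.6% of all did, and 23 passed on neither. These shares are near the background. The Myc-side count was 6 without 540-B, 546-B or 595-A, 5 on channel 1 arrays alone and 21 on channel 2 arrays alone. The opposite-side count was 14 and 1 on those arrays. The threshold was an adjusted p under 0.05 from limma on extract means, with Benjamini-Hochberg adjustment over 18923 probes. Tested in each orientation alone, 4 members passed on the Myc side both times (10.5%, as for all tested probes at 10.5%) and 1 on the opposite side (2.63%, against 6.27%). The members on the Myc side in every measured extract were the same 4 (10.5%, against 6.07% of all tested probes), and 1 was on the opposite side in every measured extract (2.63%, against 3.56%). Calls on the Myc side were 62.9% of all calls over the tested probes as deposited, and 51.3% after each array's median was subtracted.

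Of the co-receptors, Lrp5 had the smaller adjusted p. Its extract values ran from 0.26 in 579-E over a median of 1.78 to 2.85 in 546-A on the log2 ratio scale. All 15 extracts had values on both arrays, and 29 of 30 arrays lay on the Myc side. The mean log2 ratio was 1.69 ± 0.16 (SE, n = 15), a 3.22-fold difference (limma adjusted p = 2.83e-07), with 1.77 in channel 1 and 1.60 in channel 2. Lrp6, its close relative, ran from -0.69 to 1.80 with a median of 0.50. It passed at a mean log2 ratio of 0.44 ± 0.16 (limma adjusted p = 0.0402), with 11 of 15 extracts on the Myc side. Its mean was 0.36 in channel 1, where it did not pass (limma adjusted p = 0.231), and 0.52 in channel 2. Whether Lrp5 and Lrp6 differ was not tested, since each probe has its own scale.

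Frizzled genes encode the seven-pass receptors that bind Wnt ligands through a cysteine-rich domain. Of 9 measured, 4 passed toward Myc, 2 on the opposite side and 3 on neither. Fzd9 ran from 0.71 in 579-E over a median of 1.29 to 2.40 in 540-B, with a mean log2 ratio of 1.49 ± 0.16 (SE, n = 15), a 2.80-fold difference (limma adjusted p = 1.76e-06). Fzd7 ran from 0.29 in 579-D over a median of 1.36 to 2.68 in 546-A, with a mean of 1.33 ± 0.14, a 2.52-fold difference (limma adjusted p = 1.30e-06). Both lay wholly above 0, and Fzd7 had values on both arrays of all 15 extracts. Fzd6, a receptor of the polarity branch in mouse skin, ran from 0.13 in 579-D over a median of 1.06 to 2.32 in 546-A. Its mean log2 ratio was 1.04 ± 0.16 (limma adjusted p = 7.03e-05), and the value in 546-A rested on 1 array. In channel 1 and channel 2 the means were 1.89 and 1.16 for Fzd9, 1.53 and 1.14 for Fzd7, and 0.83 and 1.19 for Fzd6. Fzd5 passed with a smaller mean, 0.50 ± 0.19 (limma adjusted p = 0.0475). It stood at 0.11 in channel 1, where it did not pass (limma adjusted p = 0.77), and at 1.01 in channel 2.

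Fzd2 lay on the opposite side, from -2.81 in 595-A over a median of -1.72 to 1.70 in 579-F. Of 14 extracts with a value, 13 were negative. The positive value in 579-F rested on 1 array with the extract in channel 2, the channel in which the Fzd2 mean is higher. The mean log2 ratio was -1.46 ± 0.28 (limma adjusted p = 5.74e-04). With the extract in channel 1 it was -2.22, and in channel 2 alone it was -0.74 and did not pass (limma adjusted p = 0.0827). Fzd4, a receptor for Norrin as well as Wnt proteins in the mouse eye, passed at -0.41 ± 0.15 (limma adjusted p = 0.0456). It stood at -0.47 in channel 1 and -0.38 in channel 2 and passed in neither alone (limma adjusted p = 0.116 and 0.301). Fzd1, Fzd3 and Fzd8 did not pass, with means between -0.43 and 0.17.

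**Figure D2:**
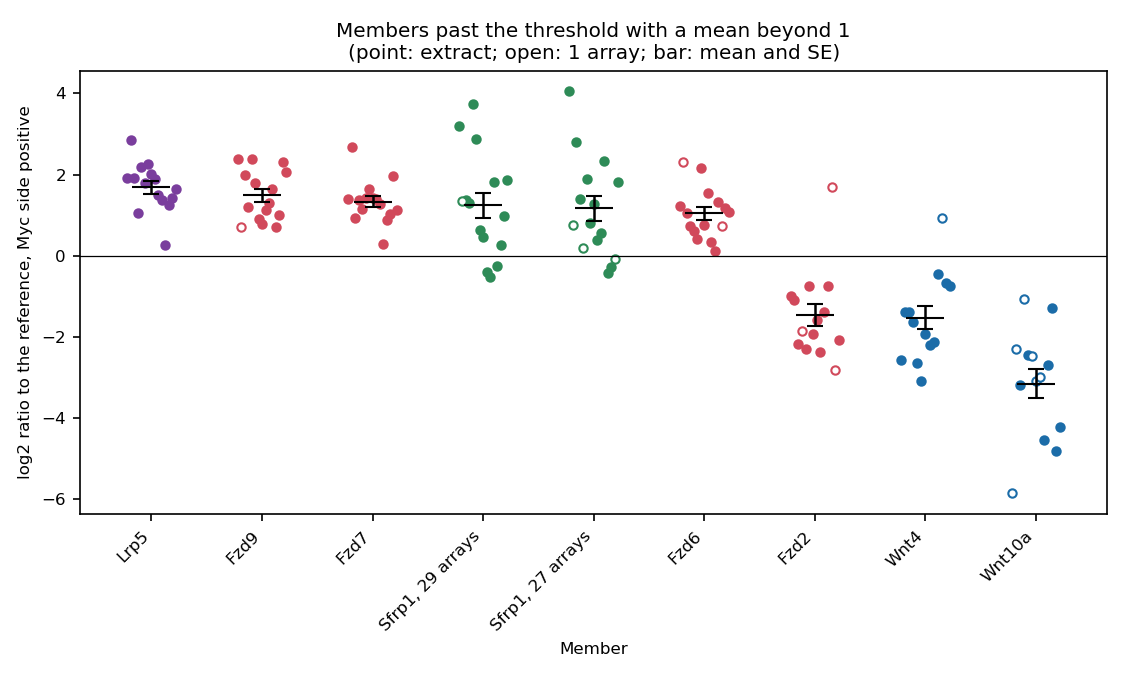
Extract values (points, open where they rest on 1 array) of the 9 probes past the threshold with a mean beyond 1, as log2 ratio to the reference, with the mean and its SE as a black bar and colours by role. Fzd2 and Wnt4 are below 0 except for 1 open point each, and Wnt10a lies below 0 throughout.

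Among the 16 ligand probes, 2 passed toward Myc, 2 on the opposite side and 12 on neither, with a median mean of 0.26. Wnt10a, a canonical ligand known for hair, tooth and skin appendage development, ran from -5.86 in 546-A over a median of -3.00 to -1.08 in 548-A in 13 extracts. Of these 13 values 6 rested on 1 array, the highest and the lowest among them. The mean log2 ratio was -3.15 ± 0.35 (SE, n = 13), an 8.88-fold difference (limma adjusted p = 5.09e-06). It was -3.05 in channel 1 and -3.45 in channel 2. Extracts 540-B and 579-A had no value for it. With 20 of 30 arrays measured, Wnt10a sits at the edge of the rule, and the unmeasured arrays are not among these values.

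Wnt4, a ligand that mediates progesterone-driven side branching of the mammary ducts in mice, ran from -3.10 in 567-B over a median of -1.63 to 0.92 in 579-F in 13 extracts. Of these, 12 were negative. The value in 579-F rested on 1 array with the extract in channel 2, the channel in which the Wnt4 mean is higher. The mean log2 ratio was -1.53 ± 0.28 (limma adjusted p = 5.28e-04), at -2.29 in channel 1 and -1.02 in channel 2. In channel 2 alone it did not pass (limma adjusted p = 0.0536). Both ligands named on the opposite side thus kept their sign in each orientation, and Wnt10a also kept its call.

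The ligand genes on the Myc side were Wnt8b at 0.81 ± 0.29 (limma adjusted p = 0.0362) and Wnt2b at 0.39 ± 0.14 (limma adjusted p = 0.0353). Their means by orientation were 0.16 in channel 1 and 1.71 in channel 2 for Wnt8b, and 0.02 and 0.80 for Wnt2b. In channel 1 alone neither passed (limma adjusted p = 0.745 and 0.966). The other 12 had means from -0.57 (Wnt6) to 0.99 (Wnt5b). Several of them spread widely. Wnt7b, a ligand needed for lung and kidney development in mice, ran from -4.04 in 579-F, on 1 array, to 3.34 in 540-B, with a mean of 0.90 ± 0.50 (limma adjusted p = 0.181). Wnt5b ran from -2.08 in 579-D, on 1 array, to 4.18 in 595-A (limma adjusted p = 0.067 for its mean). Wnt5a, the best known ligand of the non-canonical branch, ran from -1.03 to 2.17 with a mean of 0.27 ± 0.26. For Wnt8a the orientations differed most among the ligands, at -1.55 in channel 1 and 1.87 in channel 2, and its mean was -0.05. Wnt2, Wnt3a, Wnt6, Wnt7a, Wnt7b, Wnt9b and Wnt16 also changed sign between orientations, as did Wnt5a, Wnt10b and Wnt11.

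Secreted inhibitors keep Wnt ligands from their receptors: SFRP proteins bind the ligands, and DKK1 and DKK2 bind LRP5 and LRP6. Of 8 probes, 2 passed on the Myc side and 6 on neither, and both that passed belonged to Sfrp1. The Sfrp1 probe with 29 arrays ran from -0.51 in 579-B over a median of 1.29 to 3.73 in 548-A, with a mean log2 ratio of 1.25 ± 0.31 (SE, n = 15, limma adjusted p = 0.00439). The Sfrp1 probe with 27 arrays ran from -0.41 in 579-E over a median of 0.80 to 4.05 in 540-B, with a mean of 1.17 ± 0.30 (limma adjusted p = 0.00526). Each lay on the Myc side in 12 of 15 extracts. Across the 15 extracts they correlated at r 0.54, a description of 2 probes on the same libraries. They disagreed most in 548-A, at 3.73 for the first, as the mean of both arrays, and 0.19 for the second, on 1 array. By orientation the probe with 29 arrays stood at 0.75 in channel 1 and 1.70 in channel 2, and the other probe at 2.17 and 0.54. Each therefore passed in 1 orientation only, and not the same one (limma adjusted p = 0.203 for the first in channel 1, and 0.141 for the second in channel 2).

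Dkk1 had the widest spread of the inhibitors, from -3.46 in 548-A, on 1 array, over a median of 1.35 to 3.17 in 547-A, also on 1 array. Its mean log2 ratio of 0.97 ± 0.50 did not pass (limma adjusted p = 0.152, n = 14). Sfrp2 ran from -2.05 to 1.22 (mean -0.43 ± 0.25, limma adjusted p = 0.199) and Sfrp5 from -1.81 to 2.11. Dkk2, Dkk3 and Sfrp4 had means between -0.31 and 0.02.

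Of the 3 intracellular members 1 passed. Lef1, a nuclear partner of beta-catenin, stood at -0.31 ± 0.10 (limma adjusted p = 0.0235), from -0.72 to 0.45, with 13 of 15 extracts on the opposite side. Its mean was -0.52 in channel 1 and -0.09 in channel 2, where it did not pass (limma adjusted p = 0.577). Axin2, a scaffold of the beta-catenin destruction complex and a widely used readout of canonical signalling, had a mean log2 ratio of -0.65 ± 0.31 (limma adjusted p = 0.113). Its orientations gave -1.83 in channel 1 and 0.76 in channel 2, so no side can be given to it. Ctnnb1 had a mean of 0.35 ± 0.22 (limma adjusted p = 0.239), at 0.37 in channel 1 and 0.33 in channel 2.

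**Figure D3:**
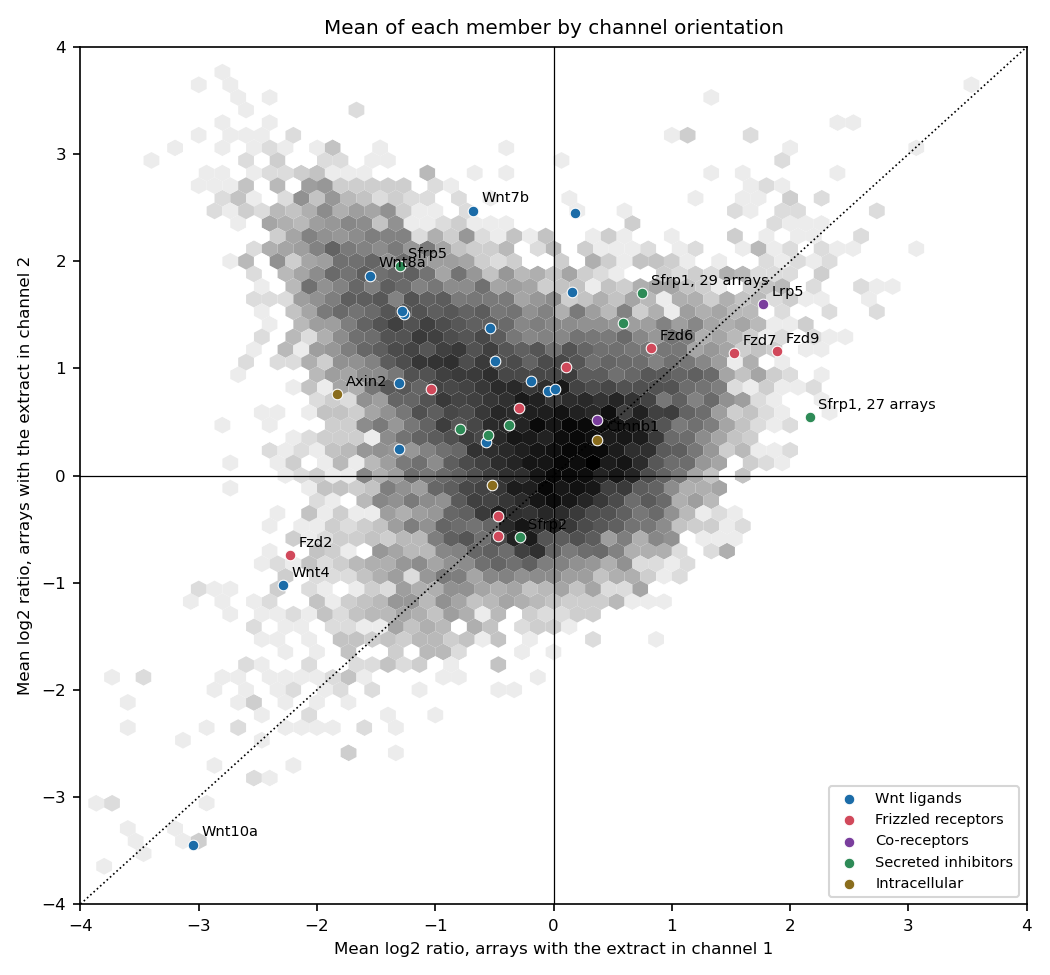
Mean log2 ratio of each member over the arrays with the extract in channel 1 (x) and in channel 2 (y), coloured by role, over a grey map of all tested probes shaded by their number on a log scale. The upper left part holds 18 members whose sign changes with the channel, while Lrp5, Fzd7, Fzd9 and Fzd6 lie at upper right and Wnt10a at lower left, near the dotted line of equal values.

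The second comparison asked whether extracts differed by more than the paired arrays of 1 RNA, with a limma F-test on the 30 arrays and a dye term for each probe. Among the members, Ctnnb1 passed and 37 did not (2.63% of members, where 2.71% of all tested probes passed). Its values by extract were 2.95 in 546-A, 0.84 in 579-E, 0.72 in 561-B, 0.66 in 540-B, 0.60 in 579-B, 0.48 in 547-A, 0.38 in 550-A and 0.23 in 546-B. They were 0.11 in 579-F, 0.08 in 579-A, 0.01 in 567-B, -0.15 in 595-A, -0.16 in 597-B, -0.21 in 548-A and -1.26 in 579-D. So 546-A was high and 579-D low, and the 13 extracts between them spanned from -0.21 to 0.84. The paired arrays read 3.10 and 2.81 in 546-A, and -1.61 and -0.91 in 579-D. F was 12.5 (limma adjusted p = 7.49e-04). Without 546-A, which has few values, F was 4.60 and the call was lost (limma adjusted p = 0.106). Without both 546-A and 579-D, a setting chosen after seeing the data, F was 2.26 (limma adjusted p = 0.546). The difference thus rests on 546-A, and the other extract of number 546 did not share its level.

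Next in order were Sfrp2 and the Sfrp1 probe with 29 arrays, the other members below an unadjusted p of 0.05 (3 in all, 7.89%, beside 2652 of all 18923 tested probes). Sfrp2 was low in 546-A at -2.05, 540-B at -2.04, 546-B at -1.29, 550-A at -1.23, 548-A at -0.99 and 579-D at -0.90, with 579-E just below 548-A. It was high in 579-A at 1.22, 595-A at 0.83, 561-B at 0.55, 547-A at 0.44 and 579-B at 0.39, with 597-B, 567-B and 579-F between -0.25 and -0.07. F was 4.47 (limma adjusted p = 0.0764). The call was gained under 3 settings: without 579-F (adjusted p = 0.014), without values at whole-number ratios (0.0225), and with the filter of at least 24 arrays and every extract (0.0347). For the Sfrp1 probe F was 3.19 (limma adjusted p = 0.208), and it passed after array medians were subtracted (limma adjusted p = 0.0338). The remaining members, among them all 16 ligands and all 9 frizzled genes, had an unadjusted p over 0.05 in this test. For them the spread over extracts was not shown to be larger than that of paired arrays at this precision. This does not show that the extracts were alike.

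Extract 546-A held the highest value of 9 members, or 23.7%, and of 16.9% of all tested probes (Lrp5, Fzd3, Fzd6, Fzd7, Fzd8, Ctnnb1, Wnt5a, Wnt9b and Sfrp4) and the lowest of 4, with 6 of these 13 values on 1 array. Extract 579-D held the lowest of 8 members, or 21.1%, and of 13.4% of all tested probes (Fzd1, Fzd6, Fzd7, Ctnnb1, Wnt5b, Wnt9b, Wnt10b and Wnt11) and the highest of 0. Extract 579-F held the highest of 7, or 18.4%, and of 10.1% of all tested probes, and the lowest of 3, with 4 of these 10 on 1 array. The SD over members was 1.83 in 546-A and 1.34 in 579-D, and over all tested probes 1.52 and 1.16. Counting an extract's members on the Myc side, 546-B had 31 of 38 and 548-A 15 of 30. The median over all tested probes also stood at 0.364 in 546-B and -0.240 in 548-A, beside 0.536 and -0.048 over members. The share of all tested probes on the Myc side in each extract was not counted, so these counts are not read as a result about the members.

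Fibroblast and matrix markers moved with Ctnnb1. On 21 fibroblast and matrix genes, among them collagens and Sparc, the level of an extract was taken as the mean of log2 ratios centred for each gene. It was highest in 546-A at 2.06, followed by 550-A at 1.63 and 540-B at 1.41, and lowest in 579-D at -1.66. Of these genes 11 differed between extracts, 14 lay on the opposite side against the reference and 1 on the Myc side. A limma slope on this level passed for Ctnnb1 alone among the members (1 of 38, 2.63%, where 1.42% of all tested probes passed, 1.34% with a positive slope and 0.0793% with a negative one). Ctnnb1 rose by 0.66 ± 0.14 log2 units per unit of the level (SE, n = 15, limma adjusted p = 0.0329). Pearson's r was 0.79 and Spearman's rho 0.78 (permutation p = 7e-05 and 0.00101, 100000 draws, 2-sided). Without 546-A and 550-A, the extracts farthest from the median level, r was 0.79. With 1 value for each of 10 code numbers r was 0.74, and the slope of 0.39 did not pass (limma adjusted p = 0.392).

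That slope depended on which extracts entered. Without 546-A it was 0.41 (limma adjusted p = 0.263). It also missed the threshold without 579-D (0.59, adjusted p = 0.105), 548-A (0.67, 0.0506), 567-B (0.65, 0.0513) or 597-B (0.66, 0.0538), and on channel 2 arrays alone (0.59, 0.197). Other marker lists varied too, with their ends in different extracts. The epithelial list was highest in 546-A (mean log2 ratio 3.64) and lowest in 579-D (2.22). The basal and macrophage lists were lowest in 579-D (-0.73 and -0.12) and highest in 540-B (1.66) and 579-A (1.40). The squamous and lymphocyte lists were highest in 546-A (1.82 and -0.24) and lowest in 579-B (-0.44) and 547-A (-1.57). The endothelial list ran from -0.12 in 548-A to 1.82 in 540-B. The adipocyte list ran from -1.49 in 548-A to 1.37 in 547-A, and the skeletal muscle list from -1.15 in 579-B to 2.14 in 546-B. The part of cell make-up in the Ctnnb1 values was not tested.

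**Figure D4:**
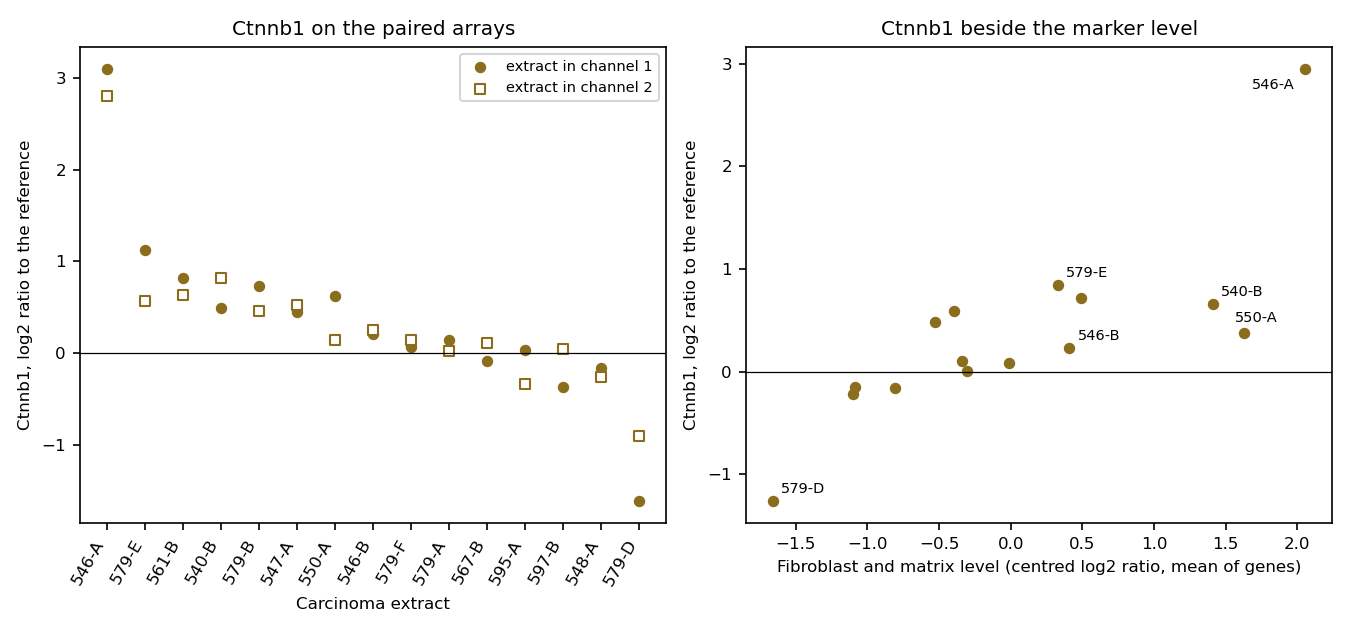
Left, the log2 ratio of Ctnnb1 on the paired arrays of each extract, filled with the extract in channel 1 and open in channel 2, ordered by mean. Right, its extract means against the fibroblast and matrix level, where 546-A (2.06, 2.95) and 579-D (-1.66, -1.26) lie at the ends.

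In the same fit 8 members (21.1%) had an unadjusted p under 0.05, where 13.8% of all tested probes did, and of the 8 members 7 did not pass after adjustment. Sfrp4, a secreted inhibitor expressed in connective tissue, had a slope of 0.46 (r 0.65, limma adjusted p = 0.175), and Wnt7b 1.03 (r 0.53, adjusted p = 0.284). Dkk3 had 0.48, Fzd6 0.31 and Fzd7 0.27, with adjusted p from 0.338 to 0.343. The slope was negative for Sfrp2, at -0.52 (r -0.54, limma adjusted p = 0.279), and Dkk2, at -0.52 (adjusted p = 0.306). Dkk2 stood at -3.39 on 1 array in 546-A and at -1.71 in 550-A, and without both its r was 0.40, against -0.53 with them.

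The third comparison set the 5 extracts of number 579 against the 10 of other numbers. No member passed, and 0 of 18923 probes (0%) passed at all, with 720 at an unadjusted p under 0.05. Of the members 4 (10.5%) were below that unadjusted level, where 3.80% of all tested probes were, each lower in 579, with an adjusted p of 1.00 in limma. For the Sfrp1 probe with 29 arrays the 579 extracts stood at -0.51, -0.40, -0.26, 0.26 and 1.83, and the others from 0.46 to 3.73. The means were 0.18 ± 0.96 in 579 and 1.78 ± 1.12 in the others (SD), a difference of -1.59 ± 0.55 (SE). Of the 579 extracts, 579-D alone overlapped the others. The other Sfrp1 probe gave a difference of -0.97 ± 0.61 (limma unadjusted p = 0.132).

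For Wnt7b the 579 extracts stood at -4.04, -0.67, 0.05, 0.10 and 1.46, and the others from -1.13 to 3.34, a difference of -2.27 ± 0.92 (limma adjusted p = 1.00). The value of -4.04, in 579-F, rested on 1 array with the extract in channel 1. Over all extracts Wnt7b averaged -0.68 in channel 1 and 2.47 in channel 2. On channel 1 arrays the 579 extracts read from -4.04 to 0.115 and the others from -4.93 to 2.93. On channel 2 arrays the 579 extracts read from 1.00 to 2.81 and the others from -0.29 to 4.58. Lrp5 averaged 1.25 ± 0.60 in 579 and 1.91 ± 0.49 in the others, and Sfrp4 averaged -0.64 ± 0.73 and 0.15 ± 0.64 (SD). In these 3 genes the groups overlapped. The fourth comparison set the progression extracts 550-A and 561-B against the 12 EMT extracts. Again 0 of 18893 probes (0%) passed, with 821 at an unadjusted p under 0.05, and among the 38 members 0 were below that level. Lrp5 averaged 2.02 in the progression extracts and 1.65 ± 0.65 in the EMT extracts (SD, n = 12). The largest difference in size was that of Wnt7b, 2.26 ± 1.41 (SE), with 3.29 and 2.15 in 550-A and 561-B and a mean of 0.45 ± 2.10 in the EMT extracts. It did not pass (limma unadjusted p = 0.129).

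Other genes of the pathway were taken from a list of 73 symbols, older names of listed genes included, of which 59 were measured. Of these 19 passed toward Myc, 2 on the opposite side and 38 on neither, with a median mean of 0.25, against 0.10 over all tested probes. These are 32.2% and 3.39% of the 59, where 23.0% and 13.6% of all tested probes passed on these sides. The list takes 1 probe for each gene, that with most measured arrays, and the background takes every tested probe. The shares are therefore of unlike units. In both orientations 11 of the 59 passed toward Myc (18.6%, where 10.5% of all did) and 2 away from it (3.39%, where 6.27% did), and 0 differed between extracts. The 1 gene beyond a mean of 1.5 was Celsr2, a cadherin of the polarity branch, at 2.12 ± 0.30 (limma adjusted p = 2.32e-05). The 2 on the opposite side were chosen for their small number after their values were seen. Wls, the carrier that takes Wnt ligands to the cell surface, stood at -1.33 ± 0.21 (limma adjusted p = 8.78e-05). Btrc, the F-box protein that marks phosphorylated beta-catenin for destruction, stood at -1.01 ± 0.17 (limma adjusted p = 1.91e-04). Both kept their sign in each orientation, at -0.99 in channel 1 and -1.67 in channel 2 for Wls, and -0.77 and -1.29 for Btrc.

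Genes often named as Wnt targets went both ways, and Lgr5 and Nkd1 stand on both lists. Of 38 listed symbols, older names of listed genes included, 31 were measured. Among those measured, 10 passed toward Myc, 10 on the opposite side and 11 on neither, with a median mean of -0.07. Each count of 10 is 32.3% of the 31, where 23.0% of all tested probes passed toward Myc and 13.6% away from it. Here too the list takes 1 probe for each gene and the background every tested probe. The count toward Myc includes Myc itself, whose side was fixed in advance because its probe named that side. On the Myc side, besides Myc itself, which the transgene carries, were the transcription factor genes Sox4 (1.54 ± 0.16) and Sox9 (1.33 ± 0.16). Apcdd1, a membrane-bound Wnt inhibitor in mouse skin (1.41 ± 0.16), and Bambi, a decoy receptor for TGF-beta signals (1.37 ± 0.30), passed there too. On the opposite side were the cyclin gene Ccnd2 (-2.64 ± 0.26) and Fosl1, an AP-1 subunit (-1.77 ± 0.17). The cyclin gene Ccnd1 (-0.68 ± 0.21) and Cd44, a hyaluronan receptor (-0.81 ± 0.25), lay there as well. These 2 also differed between extracts (limma adjusted p = 0.0334 and 0.0359). Cd44 stood at -1.09 in channel 1 and -0.52 in channel 2 and did not pass in both orientations. Ccnd2 and Cd44 have 2 tested probes each. For a listed gene with several probes, only the probe with most measured arrays is given here. Ccnd2 also rose with the fibroblast and matrix level (slope 0.85, limma adjusted p = 0.00465), as did Plaur and Twist1 (0.64 and 0.61, adjusted p = 0.0257 and 0.0259), and 14 of the 21 genes of that level lay on the opposite side too. Its part in these values was not tested. Sp5 and Lgr5, direct targets in many tissues, changed sign with the channel, as Axin2 did.

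**Figure D5:**
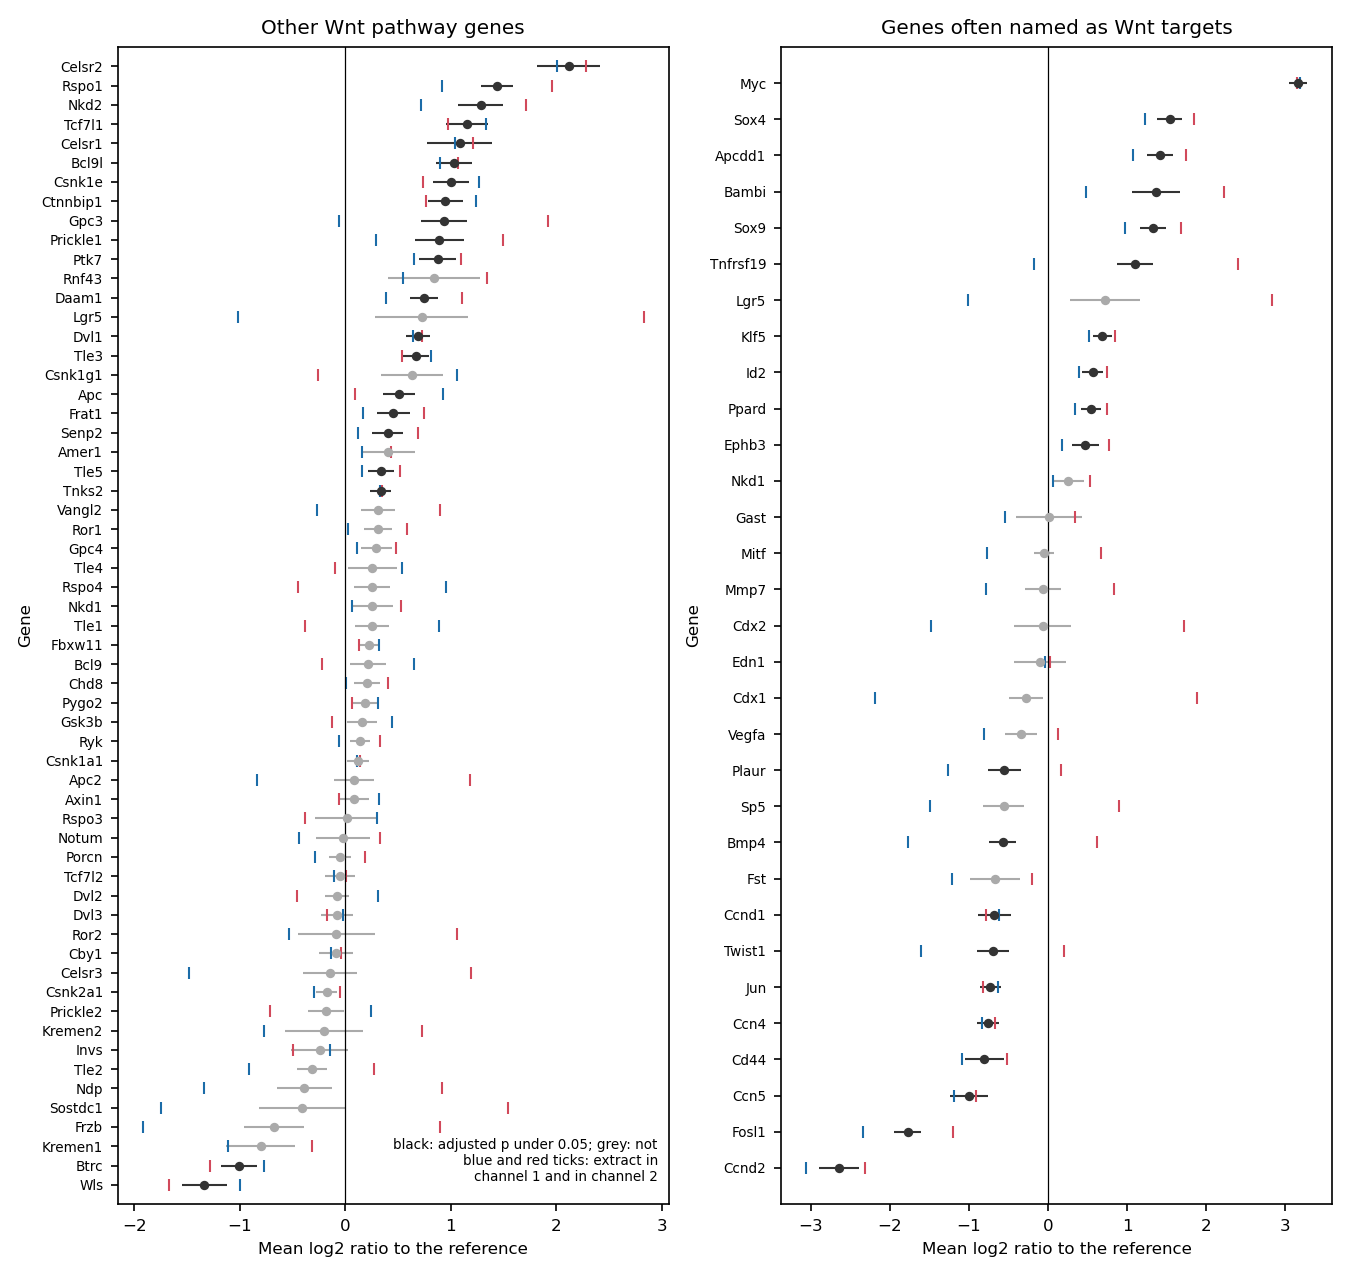
Mean log2 ratio to the reference with its SE (points and bars, black past the threshold) for 59 further pathway genes and 31 genes often named as Wnt targets, with ticks for the mean in channel 1 (blue) and channel 2 (red). Celsr2 is farthest on the Myc side and Wls on the opposite side of the pathway list, and Myc and Ccnd2 lie at the ends of the target list.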

How the data were processed

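Expression was measured on 30 two-colour arrays of 15 extracts. The authors deposited log2 ratios of the channels for 22800 probes, a scale read from the values; background correction, normalization, scanner and numerator were not found in the sources used here. A placeholder equal to the log2 of 100000 and blank cells were treated as missing. Signs were turned on arrays with the extract in channel 2 and the paired arrays of an extract averaged. Probe genes came from the platform annotation (16874 probes with 1 symbol, 134 with several, the rest unnamed); all 38 members matched RefSeq gene identifiers on GRCm38.p6. The probes' own build is not given, so no probe coordinates are printed.

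Tests used limma 3.58.1 in R 4.3.3 with Benjamini-Hochberg adjustment over all probes with at least 20 arrays. The code was also run on simulated data. That run does not show how each comparison performs on values as weakly measured as these. With 1 reference RNA, the test against it leaves out any variation of the reference; the number of arrays limits the precision. All members are accounted for. Lowest, median and highest values, or all extract values, were to be given for those that passed against the reference with a mean beyond 1 or passed between extracts. Some other members, among them Lrp6 and Dkk1, are given with such values too. Of the pathway genes, those beyond 1.5 were to be named. Members, gene lists, marker lists and tests were chosen with earlier results of these data known. Alternatives covered centring, filters, extracts left out, orientation, dye term, code numbers and whole-number ratios. Figures used matplotlib 3.10.9.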

Additional observations from a re-analysis of the deposited data

Results flagged for a closer look

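Values were split into 76 sets, each member within 579 and within the other numbers. In 8 of them the highest or lowest extract lay far from the rest, where chance nominally gives about 1 in 20. The share of such sets over all tested probes was not counted, so the 8 are not read as a result about the members. Ctnnb1 in 546-A stood at 2.95, the mean of 2 arrays, with the other 9 extracts outside 579 between -0.21 and 0.72. Fzd5 in 546-A stood at -1.59 on 1 array with the extract in channel 2, the channel in which its mean is higher. Elsewhere outside 579 it stood at 0.05 or more. Wnt8b in 548-A stood at -2.86 on 1 array with the extract in channel 1, the channel in which its mean is lower, against 0.31 or more. Axin2 in 579-F stood at -4.38 on 1 array with the extract in channel 1, the channel in which its mean is lower, against -0.76 to 0.39 in the other 579 extracts. Wnt8a in 595-A stood at -3.53, with -2.81 and -4.25 on the paired arrays. Wnt6 in 567-B stood at -2.42, with -1.76 and -3.09. Wnt9b in 579-D stood at -0.98, with -1.61 and -0.35. Dkk2 in 579-B stood at 0.57, with arrays of opposite sign at -0.24 and 1.38. The causes were not tested.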

How the results depend on the processing

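The calls of Lrp5, Fzd6, Fzd7, Fzd9 and Wnt10a against the reference held under every alternative that gave them a value. Fzd2 and Wnt4 lost theirs on channel 2 arrays alone (-0.74 and -1.02). None of the member results recomputed under the alternatives (the members named above, both Sfrp1 probes, Ctnnb1 and Sfrp2) changed direction, but 18 other members changed sign between the orientations, as the report gives. The members called on the Myc side numbered 10, 5 on channel 1 arrays, 21 on channel 2 arrays, and from 6 to 10 with 1 extract left out (6 without 540-B, 546-B or 595-A). Those on the opposite side numbered 5, 14 on channel 1 arrays, 1 on channel 2 arrays, 1 with at least 24 arrays and every extract (a filter that removes members with gaps), and from 4 to 6 with 1 extract left out. Between extracts 1 member passed. The number was 2 after medians were subtracted, with the stricter filter or without whole-number ratios, 0 without 546-A and 548-A or without 546-A and 579-D, and from 0 to 2 with 1 extract left out. The slope on the marker level called 1, 0 without 546-A and 548-A, on channel 2 arrays or with 1 value for each code number, 2 on channel 1 arrays or where only extracts with both arrays entered (chosen after seeing the data), and from 0 to 1 with 1 extract left out. Members called in 579 and in progression stayed at 0 under all alternatives run. Over all probes 513 differed between extracts, against 801 with the stricter filter, 298 without 546-A and 548-A, 229 with no dye term, 343 without 579-D and 189 without 546-A and 579-D. The slope called 268, against 455 on channel 1 arrays, 50 on channel 2 arrays, 64 without 546-A and 548-A, 74 without 546-A, 144 without 550-A and 58 with 1 value for each code number. Progression against EMT called 27 probes without 561-B and 1 with the stricter filter. The share of calls on the Myc side was 35.7% on channel 1 arrays and 78.8% on channel 2 arrays, and the median mean over all tested probes moved between -0.22 and 0.46. Where no cause is named, the cause was not tested. No paired analysis was possible because the labels give no replicate numbers shared between groups.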
